A study of Homo sapiens with 4 samples.

Results

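miR-378a is a microRNA (miRNA) made from a single hairpin in an intron of PPARGC1B, and its 2 mature strands, hsa-miR-378a-3p and hsa-miR-378a-5p, are 2 of the 843 distinct mature miRNAs in the counts analysed here. Of the 843, 570 were known miRNAs and 273 were the authors' own predictions. The pair was chosen from these data, because the 5p strand was among the miRNAs with higher values with the positive probe. Differences between the probes are therefore given as a description of the libraries, with no test.

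The miRNAs were sequenced after an RNA pull-down, in which a biotinylated RNA probe on streptavidin beads is mixed with a cell lysate, the beads are washed and the RNA that stays on them is recovered. HGC27 and AGS, both established human gastric cancer lines, carried a lentiviral construct for stable overexpression of the FN1 3′-untranslated region (3′-UTR) in all 4 groups; FN1 encodes fibronectin. The groups were HGC27 with the negative probe, HGC27 with the positive probe, AGS with the negative probe and AGS with the positive probe, and each was 1 library, so no group had a replicate. The probes were RNA to the FN1 3′-UTR, and which strand the positive probe carried is not stated in the labels. The paper's methods describe antisense RNA on the beads, without saying whether this was the positive or the negative probe. No library from untreated cells or from RNA before the pull-down was analysed here, so the values are levels on the beads and not levels in the cells.

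PPARGC1B encodes PGC-1β, a coactivator that works with the estrogen-related receptors to drive mitochondrial and fatty acid oxidation genes, and miR-378a is transcribed with it. A miRNA hairpin is trimmed by Drosha and Dicer to a short duplex, from which 1 strand is usually kept in an Argonaute protein as the guide and the other is mostly degraded. The 3p strand is the usual guide of miR-378a, is abundant in skeletal and cardiac muscle, and is known to repress CRAT, which acts in fatty acid metabolism. The 5p strand, first named miR-378*, is known to repress the estrogen-related receptor ESRRG and GABPA in breast cancer cells. Bases 2 to 8 of a mature miRNA, the seed, choose its targets, so the strands of 1 hairpin act on different transcripts.

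The mature sequences are shown because the report turns on how differently these strands of the same hairpin were recovered. They are written 5′ to 3′ as listed in the counts, with the seed in capitals.
hsa-miR-378a-5p: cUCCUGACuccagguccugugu
hsa-miR-378a-3p: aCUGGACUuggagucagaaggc
Both were identical to the RefSeq entries. Each is 22 bases long. The 5p seed was found in 0 other listed miRNAs and in 0 other entries of the RefSeq mature table. The 3p seed was shared with hsa-miR-378d among the listed miRNAs, and with 6 further RefSeq entries, namely miR-378b, miR-378c, miR-378f, miR-378h, miR-378i and miR-422a. The strands had 59.1% (5p) and 54.5% (3p) G and C bases, against a median of 50.0% over the known miRNAs, of which 73.9% had less than the 5p strand and 61.2% had less than the 3p strand.

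In GRCh38.p14 the 5p strand lies on chromosome 5 from 149732829 to 149732850 and the 3p strand from 149732867 to 149732888, both on the plus strand. The 16 bases between them, guuaccuagaaauagc, include the hairpin loop. RNAfold folded the annotated hairpin of 66 bases into a stem with 24 base pairs at a minimum free energy of -38.5 kcal/mol. Of these pairs, 18 joined the mature strands, and 6 of the 7 seed bases of each strand were paired.

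The host gene PPARGC1B spans chromosome 5 from 149730298 to 149855022 on the plus strand (GENCODE, GRCh38). The hairpin lies in intron 1 of 4 of its 7 annotated transcripts, and starts 2404 bases after the end of exon 1. In 3 of these transcripts the intron runs from 149730421 to 149820432, which is 90012 bases. In the remaining transcript it ends at 149739992 and is 9572 bases long. The miRNA is thus intronic, in sense orientation and near the start of the gene in all 4.

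The libraries held 1452832 counts (HGC27, negative probe), 1296853 (HGC27, positive probe), 2955078 (AGS, negative probe) and 1527390 (AGS, positive probe), over 342 to 609 listed miRNAs each. Single miRNAs took a large share. miR-148a-3p made up 50.6% of the counts with the negative probe and 35.0% with the positive probe in HGC27, and miR-372-3p made up 80.8% and 37.5% in AGS. Epithelial miRNAs of the miR-200 group were all listed (5 of 5), with 0.130% and 0.0762% of the counts in HGC27 and 2.02% and 0.210% in AGS, in the order negative and positive probe. miR-141-3p among them was at 0 in 3 of the 4 libraries.

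Levels are given as tags per 1000000 (TPM), the count divided by the divisor behind the authors' own normalized score. In parentheses are exact 95% intervals, which cover counting error only, since PCR reads without molecular identifiers are not independent molecules.

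miR-378a-3p was the main strand in all 4 libraries and ranked among the more abundant known miRNAs. In HGC27 it had 21557 counts with the negative probe, 7416 TPM (7318 to 7516), and 14653 counts with the positive probe, 5303 TPM (5217 to 5389). In AGS it had 792 counts with the negative probe, 110 TPM (103 to 118), and 1628 counts with the positive probe, 381 TPM (363 to 400). Both HGC27 libraries therefore lay above both AGS libraries. Its rank among the listed known miRNAs was 12 of 442 and 13 of 425 in HGC27, and 42 of 289 and 23 of 272 in AGS, in the order negative and positive probe.

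miR-378a-5p was low with the negative probe and higher with the positive probe in both lines. In HGC27 it had 176 counts with the negative probe, 60.5 TPM (51.9 to 70.2), and 934 counts with the positive probe, 338 TPM (317 to 360). In AGS it had 7 counts with the negative probe, 0.975 TPM (0.392 to 2.01), and 183 counts with the positive probe, 42.8 TPM (36.8 to 49.5). The AGS negative probe library stood lowest, and the HGC27 negative and AGS positive probe libraries were closest to each other, although their intervals did not overlap. Its rank among the known miRNAs moved from 106 of 442 to 57 of 425 in HGC27 and from 179 of 289 to 58 of 272 in AGS.

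**Figure D1:**
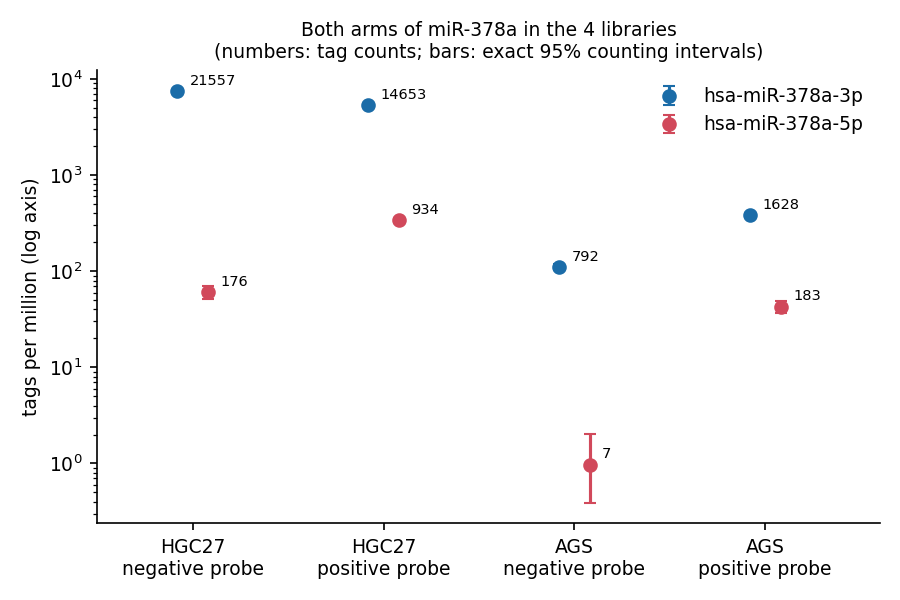
Tags per 1000000 (log axis) of hsa-miR-378a-3p (blue) and hsa-miR-378a-5p (red) in the 4 libraries, with the tag count printed beside each point and exact 95% counting intervals as bars. The 3p strand lies above the 5p strand in each library, and the 5p strand is lowest, at 7 counts, in the AGS negative probe library; the 3p order of the AGS libraries turns when miR-372-3p and miR-148a-3p are left out of the totals.

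The probes were compared in the study to find miRNAs enriched with the FN1 3′-UTR. The ratio used here was the score + 1 with the positive probe over the score + 1 with the negative probe, and at least 2 was called enriched. By the way the pair was chosen, the 5p strand was enriched. Its ratio was 5.47 in HGC27, with a fold of 5.58 from the counts (4.75 to 6.60). In AGS the ratio was 22.0, with a fold from the counts of 43.9 (20.9 to 111). The gap between 22.0 and 43.9 arises because a pseudocount of 1 equals the score of 1 that this strand had with the negative probe, so the ratio in AGS understates the fold.

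The 3p strand did not share this pattern. In HGC27 its ratio was 0.715 (fold 0.715 from the counts, 0.700 to 0.730), neither enriched nor depleted. In AGS its ratio was 3.44 (fold 3.45, 3.17 to 3.76) and it counted as enriched, but the direction turned, to a log2 ratio of -0.10, when miR-372-3p and miR-148a-3p were left out of the library totals. Thus 1 of the 2 strands was enriched in HGC27, where 37.5% of all listed miRNAs were, and 2 of 2 in AGS, where 39.4% were. Nothing is read from these counts, because the ratio was what chose the pair.

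A scaling moves all miRNAs of a library by the same factor, so the strands were also set against the median of the known miRNAs with at least 10 counts in the line. That difference cancels the scaling by construction, apart from the pseudocount. With the authors' score this median was a log2 ratio of -0.16 in HGC27 (324 miRNAs) and 0.19 in AGS (210 miRNAs). Without miR-372-3p and miR-148a-3p in the totals it was -0.49 in HGC27 and -1.37 in AGS. With the authors' score the 5p strand stood above the median by 2.61 in HGC27 and by 4.27 in AGS. The 3p strand stood above it by 1.60 in AGS, and in HGC27 its difference from the median was -0.33. Without miR-372-3p and miR-148a-3p in the totals these 3p differences were 1.27 in AGS and -0.30 in HGC27. By ratio the 5p strand ranked 16 of 324 in HGC27 and 13 of 210 in AGS, whereas the 3p strand ranked 178 of 324 and 55 of 210. The high place of the 5p strand follows from the way the pair was chosen. In AGS this strand reached 10 counts only through the positive probe library (7 counts with the negative and 183 with the positive probe).

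Known miRNAs named 5p had a higher median ratio than those named 3p in both lines. Among known miRNAs named 5p with at least 10 counts in the line, the median log2 ratio was 0.00 in HGC27 (149 miRNAs, 26.8% with a ratio of at least 2) and 0.58 in AGS (98 miRNAs, 39.8%). Among those named 3p it was -0.42 in HGC27 (141 miRNAs, 26.2%) and 0.00 in AGS (93 miRNAs, 33.3%).

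Both strands come from the same hairpin and the same library, so the share of the 5p strand in their summed counts does not depend on how libraries are scaled. This share was under 1% with the negative probe in both lines. It was 0.810% in HGC27 (0.695 to 0.938, of 21733 counts) and 0.876% in AGS (0.353 to 1.80, of 799 counts). With the positive probe it was 5.99% in HGC27 (5.62 to 6.38, of 15587 counts) and 10.1% in AGS (8.75 to 11.6, of 1811 counts). For each 5p count there were 122 counts of the 3p strand in HGC27 and 113 in AGS with the negative probe, against 15.7 and 8.90 with the positive probe. The 3p strand thus remained the larger one in every library. The share contains the 5p counts that chose the pair, so its difference between the probes is a description of these libraries.

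The ratio of 5p to 3p counts was 7.81-fold higher with the positive probe in HGC27 (6.63 to 9.24) and 12.7-fold higher in AGS (6.01 to 32.2). With the negative probe this ratio was 1.08 times as high in AGS as in HGC27 (0.428 to 2.29), a difference not detectable at this depth. With the positive probe it was 1.76 times as high in AGS (1.48 to 2.09), an interval that leaves out 1. This interval treats reads as independent and rests on 1 library per group. The ratio also contains the 5p counts that chose the pair. With 2 libraries a line, an exact permutation test (two-sided) cannot give a p below 0.333, so no such test was made between the lines.

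**Figure D2:**
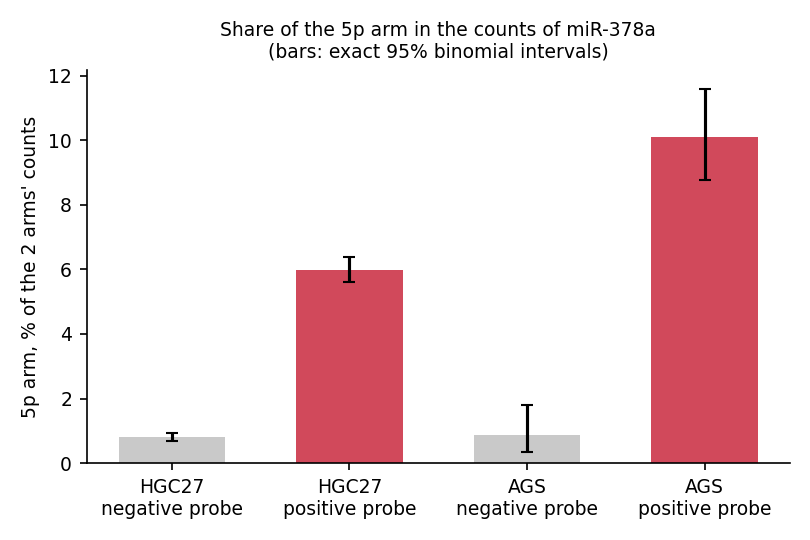
Share of the 5p strand in the summed counts of both miR-378a strands (percent, axis from 0), with exact 95% binomial intervals as error bars, for the negative (grey) and positive (red) probe in HGC27 and AGS. Both negative probe bars are under 1%, and the positive probe bars reach 5.99% and 10.1%.

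Other hairpins with both strands counted show how common such a shift was. Of 117 hairpins with both strands listed, 10 had at least 10 counts of each in every library, and miR-378a itself was not among them because of its 7 counts of the 5p strand. When it was added to these 10, its change of the 5p to 3p ratio (log2 2.96 in HGC27 and 3.67 in AGS) ranked 3 of 11 in HGC27, between mir-28 (4.31) and let-7d (2.20). In AGS it ranked 4 of 11, between let-7d (4.48) and mir-200a (3.29). The 5p to 3p ratio was higher with the positive probe for 7 of the 10 others in each line, with a median log2 change of 0.97 in HGC27 and 2.47 in AGS.

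With at least 10 counts per strand in both libraries of a line, an alternative chosen after the data were seen, 42 other hairpins could be compared in HGC27 and 12 in AGS. A ratio at least 2 times as high with the positive probe, as miR-378a showed in both lines, was found for 28.6% of these in HGC27 and for 66.7% in AGS. The direction of the miR-378a shift was therefore shared by most of the few hairpins countable in AGS, and by 21 of 42 in HGC27, where their median change was 0.07. miR-378a ranked 6 of 43 in HGC27 on this basis and, added in spite of its 7 counts, 5 of 13 in AGS. Hairpins that share a mature strand, such as the copies of miR-181a, are not independent in these counts.

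Among the 14 hairpins with at least 5 counts of each strand in every library, those at the ends of the range were named after their values were seen. mir-28 had a 5p share of 4.16% with the negative and 46.3% with the positive probe in HGC27, and of 3.99% and 72.7% in AGS. The strand that was low with the negative probe thus became the larger one in AGS, which miR-378a-5p did not. mir-423 had log2 changes of 4.66 and 9.45. In the other direction, mir-99b had -3.70 and -4.12, and mir-106b had -3.39 and -6.12, in the order HGC27 and AGS.

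**Figure D3:**
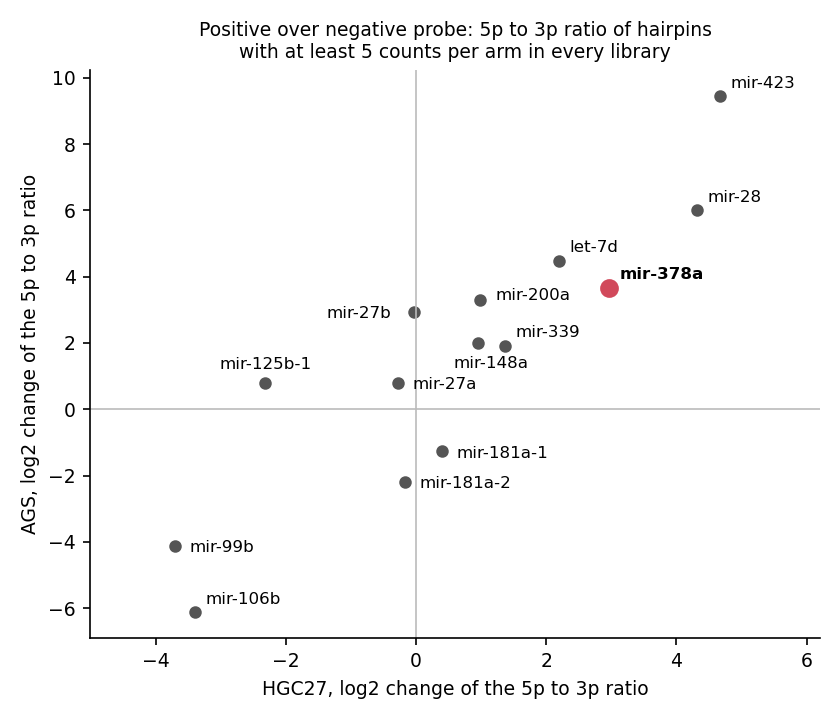
Log2 change of the 5p to 3p count ratio, positive over negative probe, in HGC27 (horizontal axis) and AGS (vertical axis) for the 14 hairpins with at least 5 counts of each strand in every library. miR-378a (red, 2.96 and 3.67) lies in the upper right with let-7d, mir-28 and mir-423, and mir-99b and mir-106b lie in the lower left.

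The cell lines were compared because the choice of the pair did not use this contrast. Both strands had a higher level in TPM in HGC27 than in AGS with either probe. With the negative probe the fold of HGC27 over AGS was 67.2 for the 3p strand (62.6 to 72.3) and 62.1 for the 5p strand (29.5 to 157). With the positive probe it was 13.9 for the 3p strand (13.2 to 14.7) and 7.89 for the 5p strand (6.73 to 9.30). The folds of the strands did not differ beyond counting error with the negative probe and did so with the positive probe.

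These folds depended on the scaling, and the AGS negative probe library was the one in which miR-372-3p took most counts. Under TMM (trimmed mean of M-values, the scaling of edgeR), the log2 fold was 3.04 for the 3p strand and 2.92 for the 5p strand with the negative probe, against 6.07 and 5.96 with the authors' divisors. With the positive probe it was 1.55 and 0.73 under TMM, against 3.80 and 2.98. Both strands stayed higher in HGC27 under all 5 scalings compared, with a lowest log2 fold of 0.42, for the 5p strand with the positive probe under DESeq2 size factors.

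**Figure D4:**
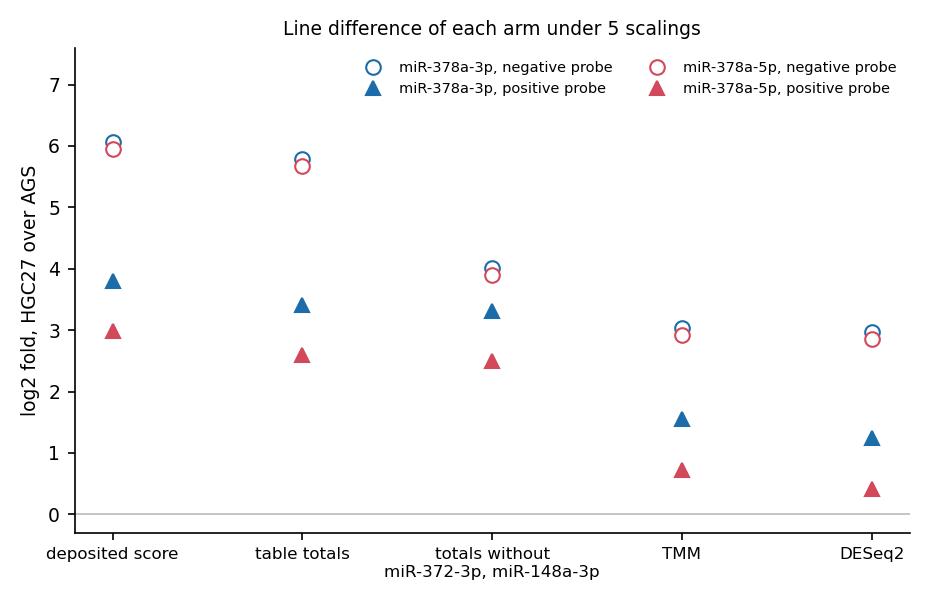
Log2 fold of HGC27 over AGS for each strand and probe under 5 ways to scale the libraries (horizontal axis). All 20 points lie above 0, and they range from 6.07 (3p, negative probe, authors' divisors) to 0.42 (5p, positive probe, DESeq2 size factors).

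edgeR's quasi-likelihood test with the probe as a covariate gave neither strand as different between the lines. The log2 fold change, HGC27 minus AGS, was 2.06 ± 1.33 (SE) for miR-378a-3p, with an adjusted p of 0.266 in edgeR. It was 1.51 ± 1.15 for miR-378a-5p, with an adjusted p of 0.363 in edgeR (4 libraries, 271 miRNAs tested). Each SE was worked back from the fold change and the F statistic of the test. The median log2 fold change of the tested miRNAs was 0.63. In this test 0 of the 2 strands were called, while 22.1% of the miRNAs tested were called as higher in HGC27 (60 of 271), and 81 were called in all. With library totals in place of TMM both strands were called in edgeR (3p log2 fold change 4.60, adjusted p 0.0143, and 5p 4.01, adjusted p 0.0116), but so were 169 miRNAs, 154 of them higher in HGC27, and the median was then 3.17.

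In this test each line was represented by its 2 probe libraries, with the mean effect of the probe taken out, so the spread behind the p-values is the departure of the line difference between the probes and not that between cultures. With 1 residual degree of freedom, edgeR's infinite prior pooled the spread over all 271 miRNAs, with a common biological coefficient of variation of 0.612.

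The levels of each strand over the 4 libraries were compared with those of the known miRNAs that had at least 10 counts in every library, by the Euclidean distance between log2 profiles centred on their means. Such a likeness describes the level over the same 4 libraries and carries no test. Nearest to the 5p strand among 114 were miR-1180-3p (distance 0.32), let-7a-5p (0.92) and miR-146b-5p (1.85). miR-1180-3p had 1556, 7575, 55 and 1906 counts in the order HGC27 negative, HGC27 positive, AGS negative and AGS positive probe. let-7a-5p, a member of the let-7 family of growth-restraining miRNAs, had 32858, 116918, 1953 and 48153 counts in that order. Both were lowest in the AGS negative probe library, as were the 5p strand and also the 3p strand of miR-378a. Profiles picked for their nearness tend to share such an order, so nothing is read from it.

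Nearest to the 3p strand among 113 were miR-615-3p (distance 0.42), miR-92b-3p (0.61) and miR-181a-2-3p (0.92). miR-615-3p, from a hairpin inside HOXC5, had 6970, 4351, 215 and 355 counts in the same order. miR-92b-3p had 4708, 3404, 211 and 246. All 3 were higher in both HGC27 libraries than in both AGS libraries by count. The strands of miR-378a were not each other's nearest profile. At a distance of 3.37, the 3p strand ranked 14 for the 5p strand, and the 5p strand ranked 56 for the 3p strand.

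Relatives of miR-378a were nearly undetected. Of 10 names searched, miR-378b to miR-378j and miR-422a, of which not all have the seed of the 3p strand, only miR-378d was listed, with 3 counts in HGC27 and 2 in AGS with the negative probe and 0 with the positive probe. It was also the 1 listed entry that shared 15 or more bases in a row with a strand of miR-378a, and no predicted entry did. Adding the miR-378d counts to the 3p strand gave a 5p share with the negative probe of 0.810% in HGC27 and 0.874% in AGS, against 0.810% and 0.876% without them. How reads that match several near-identical miRNAs were assigned is not given in the sources used here. The part of that assignment in the 3p counts was not tested.

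Other miRNAs that lie in introns of metabolic genes were looked up for comparison. miR-33a and miR-33b lie in SREBF2 and SREBF1, which govern sterol and fatty acid synthesis, and miR-103a and miR-107 lie in PANK genes, whose enzymes start coenzyme A synthesis. Of 8 mature names on this list, 3 were listed. miR-103a-3p had 57783 counts with the negative and 3863 with the positive probe in HGC27, and 12184 and 802 in AGS, with log2 ratios of -3.83 and -3.17. miR-107 had 562, 90, 75 and 4 counts in the same order, with log2 ratios of -2.51 and -2.46. Both were thus lower with the positive probe in both lines. miR-378a-3p was lower in HGC27 only, and by far less, with a log2 ratio of -0.48 that counted as neither enriched nor depleted. miR-378a-5p was lower in neither line. miR-33a-5p had 8 counts in the AGS positive probe library and 0 in the others.

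Markers of other cell types were searched as well, among them striated muscle, where miR-378a is abundant. Of 7 striated muscle miRNAs, 3 were listed, with summed counts of 344 and 110 in HGC27 and 56 and 66 in AGS, in the order negative and positive probe. miR-1-3p held nearly all of these, while miR-133a-3p and miR-133b were not listed. Of 3 erythroid and myeloid miRNAs, 1 was listed, with 2 counts in 1 library. The hepatocyte miRNA miR-122-5p had 38, 31, 6 and 48 counts in the order HGC27 negative, HGC27 positive, AGS negative and AGS positive probe. With the positive probe the summed muscle counts were thus lower in HGC27 and higher in AGS, and miR-122-5p was higher in AGS. Their part in the values of miR-378a was not tested.

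The sequence of the FN1 3′-UTR was searched for sites complementary to the seeds. In GRCh38 this region, in the GENCODE transcript used here, lies on the minus strand of chromosome 2 from 215360454 to 215361554 and is 1101 bases long. A site of 7 bases opposite seed bases 2 to 8 reads GTCAGGA for the 5p strand and AGTCCAG for the 3p strand. Neither occurred in the sense or in the antisense strand. For comparison, 7.37% of the 570 known miRNAs had such a site in the sense strand and 7.72% in the antisense strand. A site of 6 bases opposite seed bases 2 to 7, TCAGGA for the 5p strand and GTCCAG for the 3p strand, occurred 1 time, for the 5p strand in the antisense sequence. Such shorter sites were found for 26.1% of the known miRNAs in the sense and for 22.6% in the antisense strand. The absence of a site says only that these letters are not in this region.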

How the data were processed

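The 4 groups of 1 library each were taken from the labels of cell line and probe. Every table column matched a sample title (0 columns were left unmapped). The authors deposited raw counts of tags for each mature miRNA, and a score, the tags per 1000000 given only as whole numbers. The submitters' processing notes name cutadapt 1.9.3, Novoalign 3.02.12 and the build hg38, and the miRNA database release is not given in the sources used here. Rows repeated for several precursors were collapsed from 901 to 843 names. The lowest count listed was 2, and blanks were taken as 0. Divisors were recovered from the deposited counts and scores, and the table totals were 35.7% to 50.0% of them, which the sources used here do not explain. The score had been planned for as TPM, and the ratio was kept.

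Ratios used a pseudocount of 1, and at least 2 was enriched and at most 0.5 depleted. Count folds and shares carry exact 95% intervals (conditional binomial and Clopper-Pearson) and levels exact Poisson intervals. With 1 library per group no test was made between probes. The lines were compared with edgeR 4.0.16 (R 4.3.3, TMM, filterByExpr, quasi-likelihood test, probe as covariate, Benjamini-Hochberg adjustment, threshold 0.05). Its code was run on simulated counts without a probe effect, a setting unlike these data, so its power here is not known from that run. DESeq2 1.42.0 and limma 3.58.1 served as alternatives. Hairpins were folded with ViennaRNA 2.7.2. Depth limits the 5p strand in AGS, at 7 counts with the negative probe.

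The miRNAs named were both strands, the listed miR-378 family, miRNAs sharing 15 bases with a strand, miRNAs in metabolic host genes, the 3 nearest profiles per strand and the hairpins ranked next to miR-378a. The members, lists and tests were chosen with earlier results of these data known.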

Additional observations from a re-analysis of the deposited data

Results flagged for a closer look

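hsa-miR-378a-3p moved in opposite directions with the positive probe in the 2 lines. Its log2 probe ratio was -0.48 in HGC27, from 21557 and 14653 counts, and 1.78 in AGS, from 792 and 1628 counts. Each line had 1 library per probe, so the difference between the lines was not tested. Without miR-372-3p and miR-148a-3p in the totals the values were -0.79 and -0.10, no longer opposite. That scaling also moved the median of the known miRNAs, to -0.49 in HGC27 and -1.37 in AGS. Against this median the 3p strand stood at -0.30 in HGC27 and 1.27 in AGS, compared with -0.33 and 1.60 with the authors' score. The log2 probe ratios stayed opposite with table totals (-0.39 and 1.99), TMM (-0.42 and 1.07) and DESeq2 size factors (-0.30 and 1.43). The 3p strand ranked 178 of 324 known miRNAs by ratio in HGC27, near the middle, and 55 of 210 in AGS.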

How the results depend on the processing

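The 5p share does not depend on scaling by construction, and from the deposited scores it can differ only by rounding. Leaving miR-372-3p and miR-148a-3p out of the totals changed the probe log2 ratio of the 5p strand to 2.17 in HGC27 and 3.49 in AGS. That of the 3p strand became -0.79 in HGC27 and changed sign in AGS, to -0.10. The median of the known miRNAs in AGS was then -1.37, and the 3p strand stood above it by 1.27. A pseudocount of 10 lowered the 5p ratio in AGS to 2.27, by construction. The 3p ratio in HGC27 was -0.39 with table totals, -0.42 with TMM and -0.30 with DESeq2 size factors, and in AGS 1.99, 1.07 and 1.43 in that order.

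The log2 fold of HGC27 over AGS for the 5p strand with the negative probe was 3.89 without the 2 top miRNAs, 2.92 with TMM and 2.85 with DESeq2 size factors. With the positive probe it was 2.59 with table totals, 2.50 without the 2 top miRNAs, 0.73 with TMM and 0.42 with DESeq2 size factors. For the 3p strand these 4 settings gave 5.79, 4.01, 3.04 and 2.97 with the negative probe and 3.41, 3.32, 1.55 and 1.24 with the positive probe.

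In the edgeR line test, library totals gave 4.01 (5p) and 4.60 (3p), both called. In the other settings neither strand was called, with adjusted p from 0.290 to 0.792 for the 5p strand and from 0.0803 to 0.597 for the 3p strand across edgeR, DESeq2 and limma. The 5p strand did not pass the filter of at least 10 counts in every library and has no value there. Leaving out 1 library at a time gave values with no test, from 0.69 to 2.48 for the 5p strand and from 1.51 to 2.60 for the 3p strand. For the 5p strand it was 0.69 without either negative probe library, 2.38 without the HGC27 positive and 2.48 without the AGS positive probe library. With the probe as covariate, each such value is only the line difference within the probe that kept both libraries. These values therefore restate the contrast of each probe and are no check of stability. The number of miRNAs called, 81, was 169 with library totals, 15 of 123 with at least 10 counts in every library, and 0 of 843 in edgeR with no filter, where 95 had an unadjusted p under 0.05. It was 62 in DESeq2 and 82 in limma. Causes were not tested.

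TMM and DESeq2 scaling of the line fold, values without rounding and pseudocount, the merging of miR-378d and the other count minimums for hairpins were chosen after seeing the data. Merging predicted entries into a strand gave no value, since none shares 15 bases with one. The labels give no replicate numbers. The probe covariate already sets the lines against each other within each probe, and without it 65 miRNAs were called, with log2 fold changes of 0.84 (5p) and 2.01 (3p).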
